A study of Homo sapiens with 4 samples.

Results

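The kinetochore, spindle and mitotic control genes are 57 genes whose products attach chromosomes to the spindle, hold back anaphase until every chromosome is attached, cut sister chromatids apart and divide the cell. They were taken from a list given by name, in 8 roles, which was drawn up with earlier results of these arrays known. Of the 57, 55 had a probe that could be matched to 1 gene, among 22439 such genes on the array, and *PLK1* and *CENPM* had no matched probe. The 55 genes were measured by 68 probes, with 1 probe for 44 genes and more than 1 for 11.

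Expression was measured in A549, a cell line of human lung adenocarcinoma grown in RPMI 1640, on 4 one-color Agilent arrays labeled with Cy3. One group was transfected with *miR-486-5p* and another with *miR-486-3p*, the guide and passenger strands of the same precursor, each with Lipofectamine RNAiMAX, and the control group was mock, cells given the transfection reagent only. There was 1 array of *miR-486-5p*, 1 of *miR-486-3p* and 2 of mock, so no control microRNA of unrelated sequence was part of the comparison. The labels do not say whether the mock arrays came from separate cultures. The p-values rest only on the spread between these 2 arrays, in each probe and over all probes, which may therefore be technical.

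A level is the log2 signal of a spot after the 75th percentile of its array was subtracted, averaged over the probes of a gene. A difference is a level minus the mean of the mock arrays, so -1 stands for 50% of the mock signal. Where a pair of differences follows a gene, the first is that after *miR-486-5p* and the next that after *miR-486-3p*. On the 4 arrays, 30689 to 31514 of 58197 probes were well above background and no spot was saturated. In the 55 genes, mock 2 minus mock 1 ranged from -0.18 to 0.27, with an SD of 0.0876. Every probe was well above background on all 4 arrays for 52 genes, and *KNL1*, *CENPI* and *SGO1* are the other 3. The epithelial keratin genes *KRT8*, *KRT18*, *KRT7* and *KRT19* were well above background on every array, *EPCAM* on 2 arrays and *CDH1* on none. Of 3 genes known to be abundant in A549, *ALDH1A1* and *AKR1C1* had a probe above background on every array. *AKR1B10* had one on the *miR-486-3p* array only. *ALDH1A1* was dim, with levels of -5.15 and -5.14 on the mock arrays. The alveolar marker genes *SFTPC* and *NAPSA* were above background on all arrays, *NKX2-1* on 2 and *SFTPB* on none. A probe of the immune markers *PTPRC*, *CD3E* and *CD14* was also above background on every array, with levels from -4.92 to -2.52 on the mock arrays, -4.71 to -1.79 with *miR-486-5p* and -4.65 to -0.35 with *miR-486-3p*. Of 4 fibroblast and endothelial markers, *VWF* was above background on every array, *COL1A1* on the mock arrays and *COL3A1* and *PECAM1* on none. The part of these markers in the results was not tested.

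At mitosis, a kinetochore is built on centromeric chromatin that carries the histone variant CENP-A. Inner proteins bind this chromatin, outer proteins grip spindle microtubules, and checkpoint proteins at unattached kinetochores restrain CDC20 and the anaphase-promoting complex (APC/C). Many of these genes are transcribed in the G2 and M phases, and the transcription factors FOXM1 and MYBL2 act on them with the MuvB complex at a short promoter element, the cell cycle genes homology region (CHR). Actively dividing tumor lines therefore carry much of this RNA, and cells outside the cycle carry little.

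The promoters of these genes were examined first. The CHR letters were not used to choose the genes, but many mitotic genes are known to carry this element. Its share among them is therefore a description and not an independent result. In RefSeq sequence of the build GRCh38.p14, from 250 bases before to 50 bases after the annotated start of transcription, 45 of the 55 genes had an entry. The letters TTTGAA or TTCGAA, searched on both strands as the CHR, stood in 30 of these 45 windows (66.7%), against 16.6% of 27305 promoters of the same length. The CCAAT box, searched as CCAAT on both strands, stood in 31 windows (68.9%), against 35.7% of all promoters. Both were present in 24 of the 45 (53.3%), against 6.58%. An E2F site, searched on both strands as TTTGGCGC, TTTCGCGC, TTTCCCGC or TTTGCCGC, stood in 4 windows (8.89%), against 3.33%. The CHR letters depended on the window. In the bases before the start alone they were found in 18 windows (40%, against 14.6% of promoters), since many matches lie just after the start. Of 41 CHR matches, 29 began within 50 bases of the start on either side.

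Stretches of 30 bases around a CHR match are given for 1 to 3 genes of most roles, because they let the element be read beside the changes of the same genes. Each is written on the strand of the gene, 5′ to 3′, and the capitals mark the match. In *ZWINT*, a kinetochore scaffold gene, the element runs on the opposite strand, so the reverse complement TTCAAA is in capitals. Within the stretch shown for *HMMR*, a further copy of the element precedes the marked one. *MKI67*, *CDC20* and *DLGAP5* have further copies in their windows, outside the stretches shown. The stretches lie in *CENPA* at chr2:26786026-26786055 (+), *HJURP* at chr2:233854629-233854658 (-), *ZWINT* at chr10:56361273-56361302 (-), *BUB1B* at chr15:40161034-40161063 (+), *CDCA8* at chr1:37692481-37692510 (+), *CDC20* at chr1:43358904-43358933 (+), *ESPL1* at chr12:53268256-53268285 (+), *MKI67* at chr10:128126435-128126464 (-), *PRC1* at chr15:90994538-90994567 (-), *HMMR* at chr5:163460598-163460627 (+) and *DLGAP5* at chr14:55191706-55191735 (-). All lie upstream of the annotated start, where the first base of the match is 18 bases before it in *CENPA* and 138 in *DLGAP5*, the nearest and the farthest of those shown.
CENPA: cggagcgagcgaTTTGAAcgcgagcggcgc
HJURP: gacgcaaatttgTTTGAAaggcccaatcag
ZWINT: gtcgactgtgacTTCAAAgtaatcttaggg
BUB1B: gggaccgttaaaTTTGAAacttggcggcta
CDCA8: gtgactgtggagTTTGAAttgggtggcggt
CDC20: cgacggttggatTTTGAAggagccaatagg
ESPL1: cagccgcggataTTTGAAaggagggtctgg
MKI67: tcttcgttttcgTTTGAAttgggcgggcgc
PRC1: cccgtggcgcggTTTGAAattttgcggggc
HMMR: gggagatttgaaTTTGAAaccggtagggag
DLGAP5: tctcacccatctTTTGAActggcccttcac

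A match is a description of letters and not a mapped binding site. The 30 genes with the letters had a median difference of -1.06 with *miR-486-5p* and -2.56 with *miR-486-3p*. The 15 without them had medians of -0.68 and -2.47, and both groups spread widely (-3.62 to -1.08 with the letters and -4.21 to -0.98 without, after *miR-486-3p*). *AURKB*, *MYBL2* and *CENPE* were among those without the letters in this window.

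**Figure D1:**
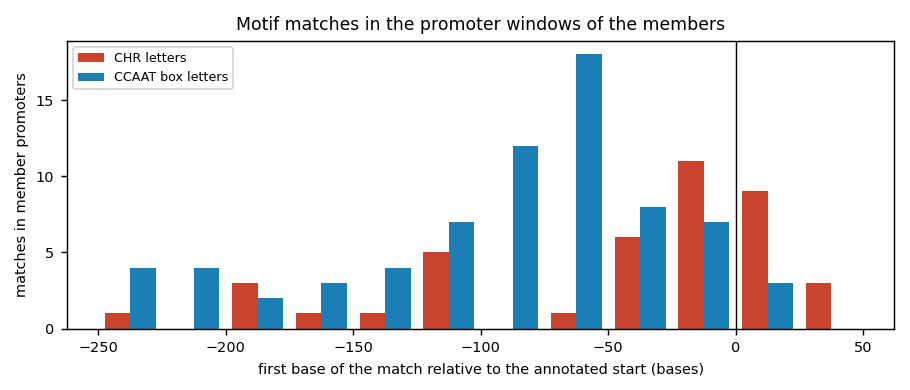
Positions of motif matches in the promoter windows of the 45 genes with a RefSeq promoter, with the first base of the match relative to the annotated start on the x axis (in bases, 0 at the start) and the number of matches on the y axis. Of the 41 CHR matches, 29 lie from 50 bases before to 50 after the start.

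After *miR-486-3p*, the mitotic genes were lower almost without exception. By limma (Benjamini-Hochberg adjusted p under 0.05), 54 of 55 fell, against 26.4% of all 16662 genes tested, and none rose, against 26.4%. None rose at an unadjusted p under 0.05 either. The remaining gene, *BUB3*, was lower on both probes but passed on 1 of them only. The median difference was -2.56 (16.9% of the mock signal), with quartiles of -2.97 and -2.15, while the median of all genes was 0.06. Only 1.26% of all genes lay below that median. With no test, 55 of 55 were lower than mock by more than 0.5 (27.2% of all genes, and 30.4% were higher by as much) and 52 by more than 1 (14.1%, with 14.8% higher). At least 4-fold lower were 46 genes (3.21% of all genes), and at least 8-fold lower were 14 (0.596%). All 55 stood below both mock arrays, as 44.8% of all genes did (49.9% stood above both).

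After *miR-486-5p*, the same genes were lower by a smaller amount. By limma, 31 of 55 fell, against 4.90% of all genes, and none rose, against 2.32% (0 also at an unadjusted p under 0.05). At an unadjusted p under 0.05, 52 were lower, against 20.0% of all genes. The median difference was -0.94 (52.2% of mock), with quartiles of -1.15 and -0.82, and the median of all genes was 0.03. Below that median lay 5.42% of all genes. With no test, 51 of 55 were lower by more than 0.5 (15.8% of all genes, and 13.8% were higher by as much) and 26 by more than 1 (4.61%, with 2.53% higher). Below both mock arrays stood 54 (42.6% of all genes, with 47.5% above both), and the exception was *MAD1L1*.

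Both comparisons used the same 2 mock arrays, so they are not independent of each other. Each strand had 1 array, and the spread in limma came from the 2 mock arrays together with the spread over all probes, so each transfected array was assumed to vary as the mock arrays did. The smallest adjusted p that any probe reached was 0.0475 after *miR-486-5p*, 0.00762 after *miR-486-3p* and 0.0119 between the strands by limma, and many genes share these values. The 31 calls after *miR-486-5p* lie close to the threshold: *NDC80* passed with an adjusted p of 0.04998 and *AURKA* did not with 0.0503, both by limma. That count ran from 0 to 53 over the other ways of processing, while the *miR-486-3p* count ran from 51 to 55. Background correction by normexp here also added an offset of 50 to each signal, which by itself makes the differences of dim probes smaller. Under it the median after *miR-486-3p* was -2.01 in place of -2.56. After *miR-486-3p* it gave -2.25 for *NUF2*, -1.97 for *CENPE*, -2.36 for *INCENP*, -1.58 for *SKA3*, -1.17 for *SGO1* and -1.69 for *MKI67*, all of them below mock. It gave -0.80 for *NDE1*, -1.10 for *SGO2* and -1.33 for *BORA*. In all, 24 of the 55 values after *miR-486-3p* moved by over 1.5 times with normexp, and after *miR-486-5p* 3 did so, those of *SPC24*, *KNL1* and *SGO1* (-0.67 for *SGO1*). In RNA from a whole culture, fewer cells in mitosis and less of each RNA per cell cannot be told apart.

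**Figure D2:**
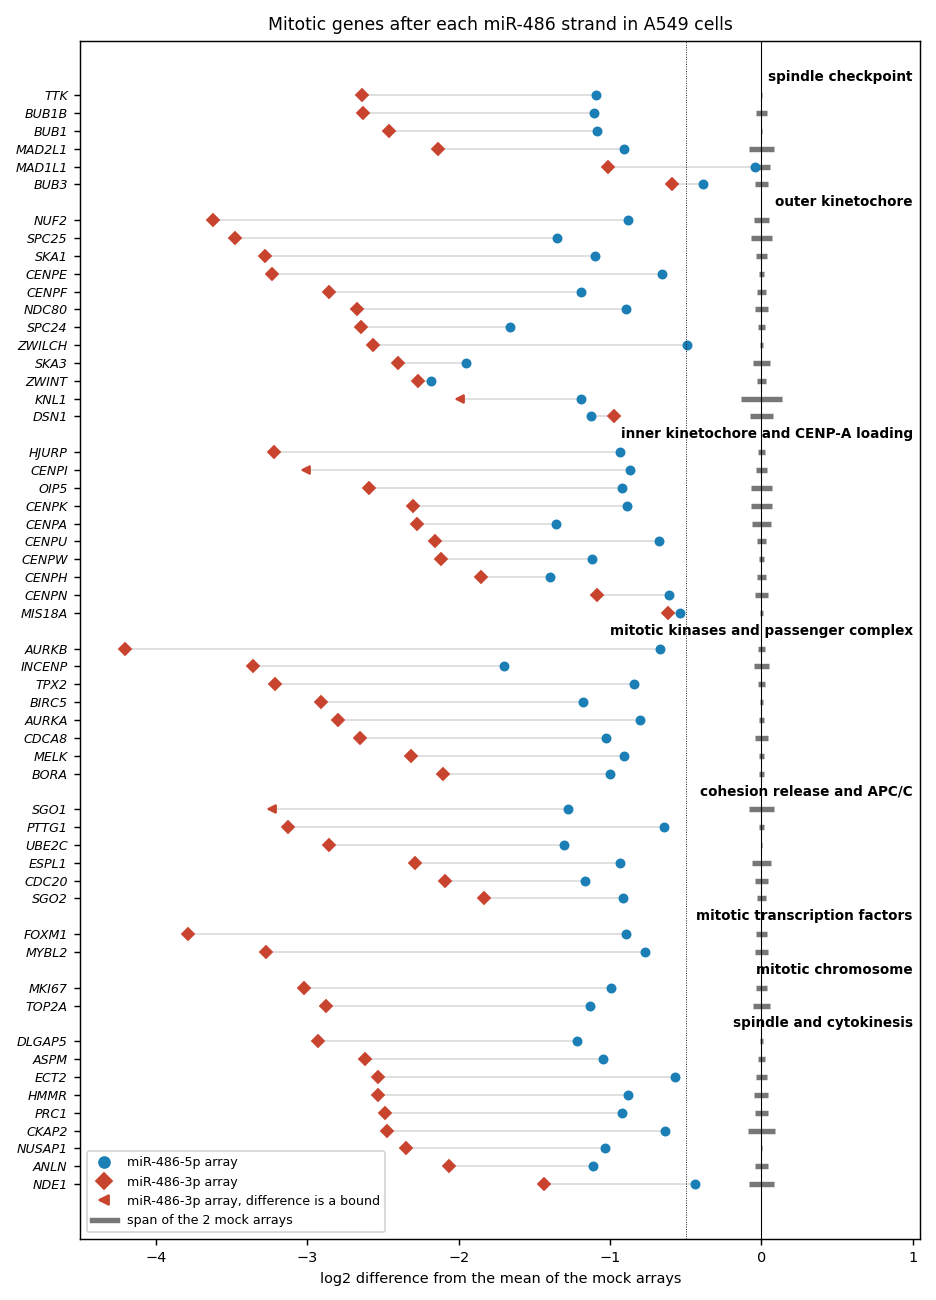
Difference of each of the 55 genes from the mean of the mock arrays (x axis, log2), for the *miR-486-5p* array (circles) and the *miR-486-3p* array (diamonds, or triangles where the difference is a bound), with genes grouped by role. The circle of *KNL1* also stands for a bound. The bars at 0 span the 2 mock arrays and the dotted line marks -0.5; the *miR-486-3p* values run from -4.21 to -0.59 and the *miR-486-5p* values from -2.18 to -0.04.

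**Figure D3:**
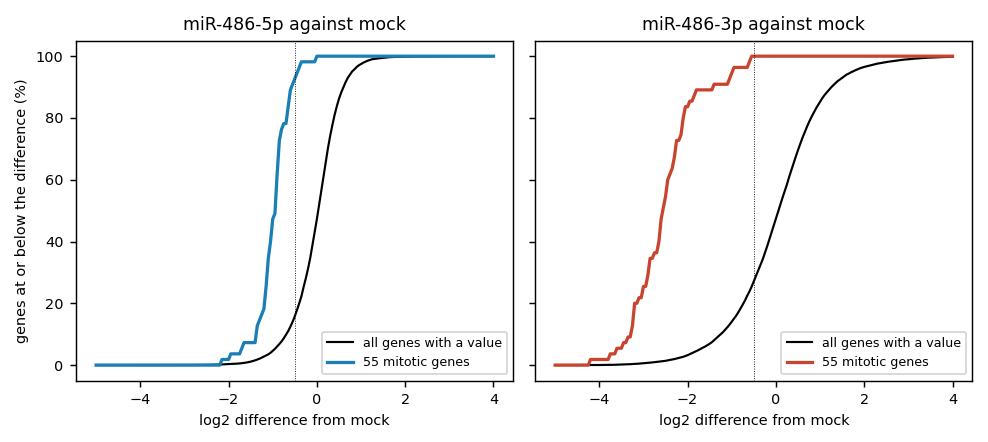
Share of genes (y axis, percent) at or below each log2 difference from mock (x axis), in a panel for each strand, for the 55 mitotic genes and for all genes with a value. The medians of the mitotic genes are -0.94 and -2.56, and those of all genes are 0.03 and 0.06, with *miR-486-5p* first.

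The spindle checkpoint genes encode the proteins that delay anaphase. All 5 of *TTK*, *BUB1*, *BUB1B*, *MAD2L1* and *MAD1L1* fell after *miR-486-3p*, and *TTK*, *BUB1* and *BUB1B* fell after *miR-486-5p*, out of 6 in the role. *TTK*, the kinase that starts the checkpoint signal, had levels of 2.37 and 2.38 on the mock arrays, 1.28 with *miR-486-5p* and -0.27 with *miR-486-3p*. Its differences were -1.09 (limma adjusted p = 0.0475) and -2.64 (0.00762). The arrays were thus in the order mock, *miR-486-5p*, *miR-486-3p*, with the mock arrays almost equal. *BUB1* and *BUB1B*, a checkpoint kinase and a subunit of the inhibitor of the APC/C, lay at -1.08 and -1.11 after *miR-486-5p*, and they lay at -2.46 and -2.63 after *miR-486-3p*. *MAD2L1*, which encodes the checkpoint protein that binds CDC20, had differences of -0.91 (limma adjusted p = 0.0550) and -2.14 (0.00821).

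The least changed checkpoint genes were *BUB3* and *MAD1L1*. *BUB3*, whose protein brings BUB1 to kinetochores, had levels of 3.56 and 3.47 on the mock arrays, 3.13 with *miR-486-5p* and 2.93 with *miR-486-3p*. Its differences were -0.39 and -0.59, and after *miR-486-3p* its probes had limma adjusted p of 0.0156 and 0.0813. *MAD1L1*, which encodes the kinetochore anchor of MAD2, stood at 0.78 and 0.89 on the mock arrays, 0.79 with *miR-486-5p* and -0.18 with *miR-486-3p*. The *miR-486-5p* array therefore lay between the mock arrays (difference -0.04, limma adjusted p = 0.799), and the *miR-486-3p* array lay below both (difference -1.02, limma adjusted p = 0.0137).

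The outer kinetochore genes were lower after both strands: all 12 fell after *miR-486-3p* (median difference -2.66) and 8 after *miR-486-5p* (median -1.16). The 4 subunits of the NDC80 complex, the main microtubule coupler, had unlike values. *NUF2* had levels of 1.60 and 1.504 on the mock arrays, 0.67 with *miR-486-5p* and -2.07 with *miR-486-3p*. Its differences were -0.88 (limma adjusted p = 0.0513) and -3.62 (0.00762). *SPC25*, a subunit at the end that faces the chromosome, had levels of 3.73 and 3.60, 2.31 and 0.19 in the same order, with differences of -1.35 and -3.48. Its partner *SPC24* had -0.57 and -0.62 on the mock arrays, -2.26 with *miR-486-5p* and -3.24 with *miR-486-3p*, with differences of -1.66 and -2.64. In *SPC24* the *miR-486-5p* array thus lay nearer to the *miR-486-3p* array than to mock, and in *NUF2* it lay nearer to mock. *SPC24* was dim, and with normexp its differences were -0.66 and -0.81. *NDC80* itself lay at -0.90 and -2.68.

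*ZWINT*, which encodes a scaffold between the KNL1 protein and the RZZ complex, had the lowest value of the 55 genes after *miR-486-5p*. Its levels were 3.46 and 3.403 on the mock arrays, 1.25 with *miR-486-5p* and 1.16 with *miR-486-3p*. The differences were -2.18 (limma adjusted p = 0.0475 on both probes) and -2.27 (0.00762). The transfected arrays stood side by side, about 2.2 below mock on the log2 scale. *SKA3*, a subunit of the complex that holds kinetochores on microtubule ends, showed a like pattern, with levels of 1.67 and 1.56 on the mock arrays, -0.34 with *miR-486-5p* and -0.79 with *miR-486-3p*. It fell, with differences of -1.95 and -2.40. *SKA1*, of the same complex, fell, with differences of -1.098 and -3.28.

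*DSN1*, which encodes a subunit of the MIS12 complex that joins inner and outer kinetochore, was the only gene of the 55 with a higher level after *miR-486-3p* than after *miR-486-5p*. That sign depended on the scaling, since with scaling to the median all 55 genes were lower after *miR-486-3p* (highest gap -0.16). With quantile normalization and with the log2 values of the authors, 53 of the 55 were lower (highest gaps 0.20 and 0.21). The levels of *DSN1* were 1.91 and 2.06 on the mock arrays, 0.86 with *miR-486-5p* and 1.01 with *miR-486-3p*. Differences from mock were -1.12 (limma adjusted p = 0.0494) and -0.98 (0.0177). *CENPE*, a kinesin gene for chromosome alignment, behaved the other way, with levels of 1.504 and 1.47 on the mock arrays, 0.83 with *miR-486-5p* and -1.75 with *miR-486-3p*. Its differences were -0.66 (limma adjusted p = 0.0549) and -3.24 (0.00762). *ZWILCH*, of the RZZ complex, had -0.49 and -2.56, and *CENPF* fell, with differences of -1.19 and -2.86. *KNL1*, the platform for the checkpoint proteins, had 1 of 2 probes below the background limit on both transfected arrays. Its other probe had differences of -0.90 (limma adjusted p = 0.0479) and -2.32 (0.00762), and the gene had a call after *miR-486-3p* only. With normexp the mean over its probes was -0.47 and -0.99.

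The inner kinetochore genes and the factors that load CENP-A fell after *miR-486-3p* in 10 of 10 measured (median -2.22) and after *miR-486-5p* in 4 (median -0.90). *HJURP*, the CENP-A chaperone gene, had levels of 5.53 and 5.48 on the mock arrays, 4.57 with *miR-486-5p* and 2.29 with *miR-486-3p*. Its differences were -0.93 (limma adjusted p = 0.0478) and -3.22 (0.00762). *CENPA* itself fell, with differences of -1.36 and -2.28. *CENPH*, of the constitutive centromere network, had levels of 2.37 and 2.30, 0.94 and 0.48 in the order mock, *miR-486-5p*, *miR-486-3p*, and fell, with differences of -1.40 and -1.85. *CENPW* fell, with differences of -1.12 and -2.12.

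*MIS18A*, which encodes a component of the complex that prepares centromeres for new CENP-A, was the least changed of the role. It had levels of 2.38 and 2.36 on the mock arrays, 1.83 with *miR-486-5p* and 1.75 with *miR-486-3p*. The differences were -0.54 (limma adjusted p = 0.0633) and -0.62 (0.0224), so both transfected arrays lay below mock at nearly the same level. *OIP5*, which encodes another component of that complex, had -0.92 (no call) and -2.59. The 3 probes of *CENPN* disagreed after *miR-486-3p*, at -1.999, -0.96 and -0.30, and the last of these had a limma adjusted p of 0.119. *CENPK* and *CENPU* were at -2.30 and -2.16 after *miR-486-3p*, and *CENPI* was at least 8.06-fold lower, though at -0.62 with normexp.

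Among the mitotic kinases and the chromosomal passenger complex, 8 of 8 measured genes fell after *miR-486-3p* (median -2.85) and 6 after *miR-486-5p* (median -0.96). *AURKB*, the kinase that corrects wrong attachments, had the lowest value of the 55 after *miR-486-3p*. Its levels were 1.76 and 1.81 on the mock arrays, 1.12 with *miR-486-5p* and -2.42 with *miR-486-3p*. The difference after *miR-486-3p* was -4.21 with an SE of 0.0909 (limma adjusted p = 0.00762), or 5.42% of the mock signal, an 18.5-fold decrease. After *miR-486-5p* it was -0.67 (limma adjusted p = 0.0551). With normexp the values of *AURKB* were -0.62 and -2.42, above the -3.19 of *FOXM1* after *miR-486-3p*. The size of the larger decrease thus depended on this correction with its offset, and its direction did not. The part of the offset in this was not tested.

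The other passenger genes followed with different ratios between the strands. *INCENP*, the scaffold of the complex, had levels of 2.16 and 2.26 on the mock arrays, 0.51 with *miR-486-5p* and -1.15 with *miR-486-3p*, and fell, with differences of -1.70 and -3.36. It thus stood among the lowest genes after each strand. With normexp it was at -2.36 after *miR-486-3p*, and *PTTG1* (-3.20), *TPX2* (-3.11), *HJURP* (-3.06) and others were lower. *BIRC5* (survivin) and *CDCA8* (borealin) fell, with differences of -1.18 and -1.03 after *miR-486-5p*, and were at -2.91 and -2.65 after *miR-486-3p*. *TPX2*, the activator of Aurora A, fell, with differences of -0.84 and -3.22. *AURKA* had -0.81 (no call) and -2.80. *BORA*, an adaptor that lets Aurora A activate PLK1, had levels of 1.06 and 1.02 on the mock arrays, 0.04 with *miR-486-5p* and -1.06 with *miR-486-3p*. It was at -1.001 and -2.10 relative to mock, and both passed. The latter was the smallest decrease of the role. *MELK*, a kinase gene, fell, with differences of -0.91 and -2.32.

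The genes for cohesion release and activation of the APC/C fell after *miR-486-3p* in 6 of 6 (median -2.57) and after *miR-486-5p* in 3 (median -1.05). *SGO1*, the protector of centromeric cohesin, had levels of 0.02 and -0.15 on the mock arrays, -1.34 with *miR-486-5p* and -3.50 with *miR-486-3p*. On the *miR-486-3p* array 1 of its 2 probes was not well above background, so it was at least 9.40-fold lower there, and its difference after *miR-486-5p* was -1.28 with no call. *SGO2*, its relative, was less changed, with levels of 0.55 and 0.48, -0.40 and -1.32, and fell, with differences of -0.92 and -1.83. *PTTG1* (securin), which holds separase inactive, had -0.65 (limma adjusted p = 0.0558) and -3.13 (0.00762). *ESPL1* (separase) had -0.94 with no call and -2.29. *CDC20* and *UBE2C*, the activator and the ubiquitin-conjugating enzyme of the APC/C, fell, with differences of -1.16 and -1.31 after *miR-486-5p*, and were at -2.09 and -2.86 after *miR-486-3p*.

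Both genes for mitotic transcription factors fell after *miR-486-3p* (median -3.53), and *FOXM1* also fell after *miR-486-5p*. *FOXM1* had levels of 3.79 and 3.86 on the mock arrays, 2.92 with *miR-486-5p* and 0.03 with *miR-486-3p*. Its differences were -0.90 (limma adjusted p = 0.0492) and -3.79 (0.00762). *MYBL2* had levels of 1.62 and 1.71, 0.90 and -1.61, with differences of -0.77 (limma adjusted p = 0.0537) and -3.27 (0.00762). In both genes the *miR-486-5p* array lay less than 1 below mock and the *miR-486-3p* array more than 3. With normexp the *miR-486-3p* values were -3.19 for *FOXM1* and -2.12 for *MYBL2*.

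The genes for mitotic chromosomes, *MKI67* and *TOP2A*, were lower on both transfected arrays. *MKI67*, the Ki-67 gene used to mark cycling cells, had levels of 1.23 and 1.16 on the mock arrays, 0.20 with *miR-486-5p* and -1.83 with *miR-486-3p*. Its difference of -3.02 passed the test, and that of -0.99 had limma adjusted p of 0.0475 to 0.0539 over 3 probes and no call. *TOP2A*, the topoisomerase that untangles sister chromatids, had levels of 2.45 and 2.33, 1.26 and -0.48 in that order, and fell, with differences of -1.14 and -2.88.

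Among genes of the spindle and cytokinesis, 9 of 9 fell after *miR-486-3p* (median -2.49) and 5 after *miR-486-5p* (median -0.92). *DLGAP5*, a spindle assembly factor, had levels of 2.94 and 2.91 on the mock arrays, 1.71 with *miR-486-5p* and -0.0053 with *miR-486-3p*, and fell, with differences of -1.22 and -2.93. *NDE1*, a dynein regulator, was the least changed, with levels of 0.80 and 0.64, 0.28 and -0.72, and differences of -0.44 with no call and -1.44. Both arrays of *NDE1* still lay below the mock arrays. *PRC1*, which bundles the midzone microtubules, fell, with differences of -0.92 and -2.49, and *NUSAP1* fell, with differences of -1.03 and -2.35. *ANLN* (anillin) fell, with differences of -1.12 and -2.06, and *ASPM* fell, with differences of -1.04 and -2.62. *ECT2*, the exchange factor that starts furrow ingression, *HMMR* and *CKAP2* had no call after *miR-486-5p* (-0.57, -0.88 and -0.64) and fell, with differences of -2.54, -2.53 and -2.47 after *miR-486-3p*.

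**Figure D4:**
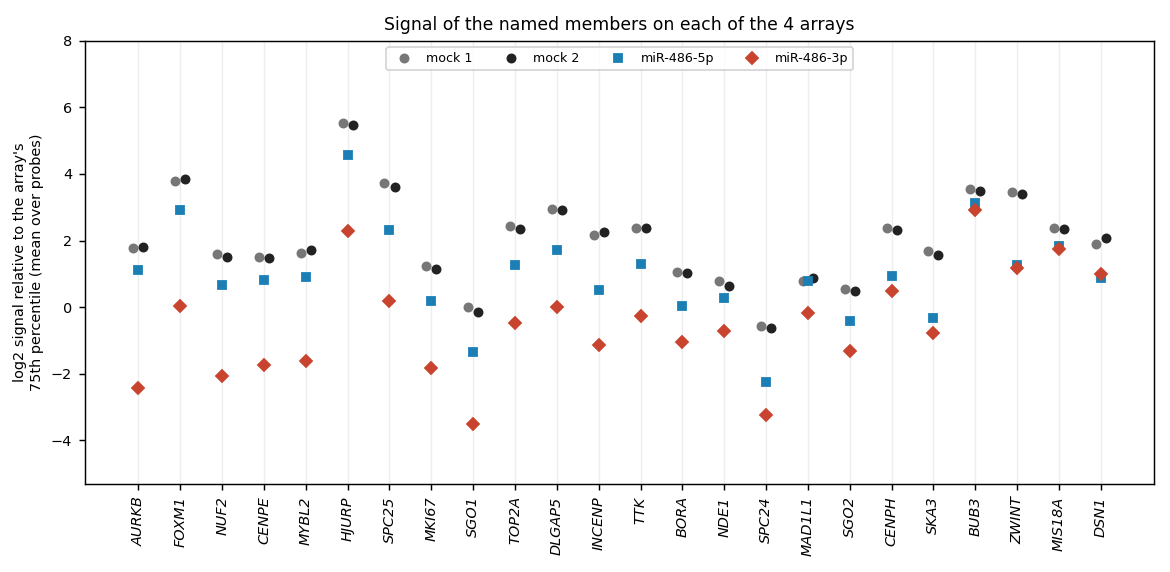
Level of 24 genes on each of the 4 arrays (y axis, log2 signal relative to the 75th percentile of the array, mean over probes), with genes ordered by the difference between the strands. The mock arrays nearly coincide, *AURKB* at the left has 1.12 with *miR-486-5p* and -2.42 with *miR-486-3p*, and *DSN1* at the right has 0.86 and 1.01.

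The strands were then compared directly, as *miR-486-3p* minus *miR-486-5p*. By limma, 47 of 55 genes were lower after *miR-486-3p*, against 22.3% of all genes, and none was higher, against 21.5% (0 also at an unadjusted p under 0.05). The median was -1.56, with all genes at 0.03. The widest gaps were in *AURKB* (-3.54), *FOXM1* (-2.89), *NUF2* (-2.74), *CENPE* (-2.58) and *MYBL2* (-2.50), each with a limma adjusted p of 0.0119. This order depended on the background correction with its offset. With normexp the widest gaps were -2.52 in *PTTG1*, -2.31 in *FOXM1*, -2.26 in *TPX2*, -2.09 in *HJURP* and -1.80 in *AURKB*. The gap was then -1.75 in *SPC25*, -1.503 in *NUF2*, -1.45 in *MYBL2* and -1.41 in *CENPE*, with other genes between these values. By role, the median gap was -2.70 for the transcription factors and -1.88 for the chromosome genes, roles of 2 genes each. It was -1.72 for the outer kinetochore, -1.69 for the kinases and -1.58 for the spindle and cytokinesis. For cohesion release, the checkpoint and the inner kinetochore it was -1.45, -1.30 and -1.21. With normexp the gap in *MKI67*, a chromosome gene, was -0.94 in place of -2.03.

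No call between the strands was made for 8 genes, of which 7 belong to the kinetochore roles. In *ZWINT* the strands differed by -0.09 (SE 0.104 and 0.112, limma adjusted p of 0.252 and 0.891 for its probes). *MIS18A* differed by -0.08 (SE 0.102, limma adjusted p = 0.583) and *DSN1* by 0.15 (SE 0.138, limma adjusted p = 0.443). *SKA3* and *CENPH* differed by -0.45 each (limma adjusted p = 0.0770 and 0.0608), *CENPN* by -0.47 and *BUB3* by -0.20. *KNL1* lacked a call because only 1 of its probes passed. With 1 array a strand, these values do not show that the strands act alike on the 8 genes.

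Other genes of mitosis, in 5 lists that hold none of the 57, were read beside them. Among all genes tested, 26.4% fell and 26.4% rose after *miR-486-3p*, while 4.90% fell and 2.32% rose after *miR-486-5p*. Of 23 other genes of the spindle, centrosome and cytokinesis, 20 fell after *miR-486-3p* (median -2.16) and 7 after *miR-486-5p* (median -0.90), and none rose. *KIF20A*, *KIF2C* and *CEP55* fell, with differences of -3.33, -3.09 and -3.06 after *miR-486-3p*, and *CLASP1* was at 0.02. Of 13 genes of mitotic entry, 10 fell after *miR-486-3p* (median -2.28) and 4 after *miR-486-5p* (median -0.75). The cyclin genes *CCNA2*, *CCNB1* and *CCNB2* fell, with differences of -3.51, -3.27 and -3.27 after *miR-486-3p*. *CCNA2* also fell by 1.19 after *miR-486-5p*. *ARPP19* was at 0.07 after *miR-486-3p* with no call. *PPP2R2D* was at 1.08 after *miR-486-5p*, where 1 of its 2 probes passed (limma adjusted p of 0.0475 and 0.435, no call).

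A different range was seen in 21 other kinetochore and checkpoint genes, where 15 fell after *miR-486-3p* (median -0.96) and 1 after *miR-486-5p* (median -0.48), a share near that of all genes, and none rose. *PMF1*, a partner of DSN1, fell by 2.30 after *miR-486-3p* and stood at 0.39 after *miR-486-5p*. *CENPT* and *MAD2L1BP* were at 0.19 and 0.23 after *miR-486-3p*, with no call. The gene with a call after *miR-486-5p* was *CENPX* (-1.12).

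The 17 subunits and regulators of the APC/C had medians near 0, at 0.08 with *miR-486-5p* and 0.07 with *miR-486-3p*. Over the other ways of processing these medians ran from -0.01 to 0.12 and from -0.34 to 0.29, so their sign depended on the scaling. After *miR-486-3p*, 6 fell and 5 rose, shares near those of all genes. The inhibitor gene *FBXO5* fell by 1.92 and *ANAPC15* fell by 1.72, while *ANAPC16* rose by 1.39 and *ANAPC13* by 0.89. After *miR-486-5p*, *CDC23* fell by 1.25 and *FBXO5* fell by 0.91.

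Of 19 genes of DREAM, MuvB, E2F and NF-Y, 12 fell and 4 rose after *miR-486-3p* (median -0.83), against 26.4% of all genes each way. After *miR-486-5p* (median -0.36), 3 fell, against 4.90% of all genes, and none rose, against 2.32%. The E2F genes *E2F2*, *E2F8* and *E2F1* fell, with differences of -3.65, -3.35 and -3.03 after *miR-486-3p*, and were at -1.40, -1.01 and -1.39 after *miR-486-5p*. *RBL2*, the p130 subunit of DREAM in resting cells, rose by 1.34 after *miR-486-3p* and stood at 0.49 after *miR-486-5p* with no call (limma adjusted p = 0.105). *NFYA*, a subunit of the CCAAT-binding factor NF-Y, rose by 0.76 after *miR-486-3p*.

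**Figure D5:**
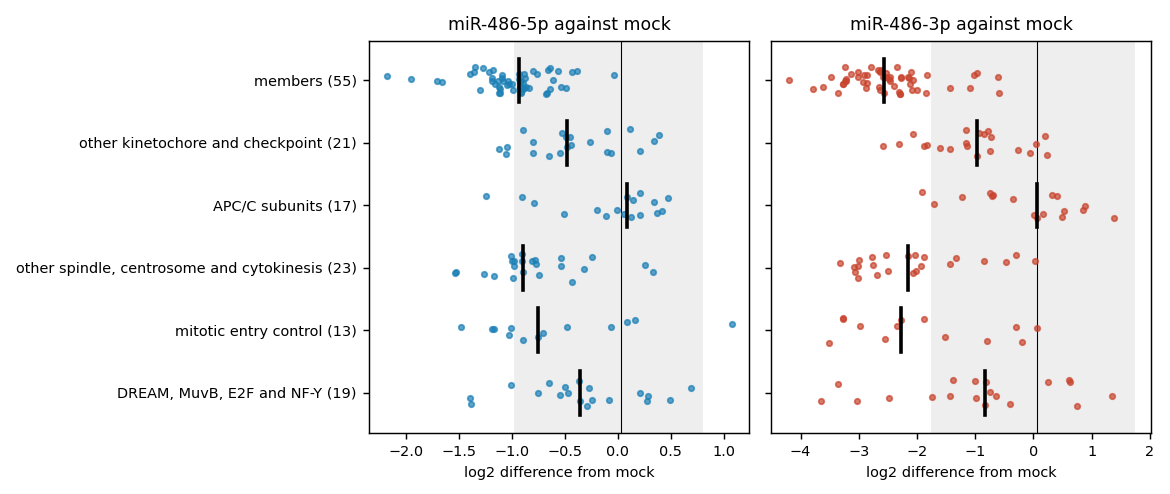
Log2 difference from mock (x axis) of each gene in the 55 mitotic genes (named members) and in the 5 other lists, for each strand, with thick bars at the medians and a gray band over the middle 90% of all genes. The APC/C subunits lie around 0 (medians 0.08 and 0.07), and the other spindle genes have medians of -0.90 and -2.16.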

How the data were processed

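Gene expression was measured in 4 samples of A549 cells. Scanner files of Agilent Feature Extraction 12.1.1.1 were deposited, which give each spot an intensity (linear, with background removed by the program). A log2 table was deposited by the authors too, and its normalization is not given in the sources used here. The quartiles of each of its columns were 0.15, 2.76 and 6.28, and 14.1% to 14.6% of the values were listed at 0. That table was used as an alternative.

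Control spots and outlier spots (50 to 72 of 60901 spots per array) were left out. The log2 intensity minus the 75th percentile of its array was used, and spots of a probe were averaged, with 4 probes left out for want of a kept spot on every array. Precision is limited by how many arrays there are. Probes were named through their RefSeq accession (31101 of 33077 matched) with a table of the assembly GRCh38.p14, used for names only. The difference of a gene is the mean over its probes. A probe not well above background on an array gives a bound there, against the higher of its own signal and the lowest signal among probes well above background.

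Differential expression was tested with limma 3.58.1 in R 4.3.3 over 33498 probes that were well above background on every array of at least 1 group, with p-values adjusted by Benjamini-Hochberg over all of them. The only residual degree of freedom lies between the mock arrays (prior degrees of freedom 1.75, prior SD 0.0893). A gene was called where more than 50% of its probes passed an adjusted p of 0.05 in 1 direction, and the percentages given for all genes use the same rule. The code was tested on simulated data. Tables were handled with Python 3.11.15, pandas 2.3.3 and numpy 2.4.6.

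The genes, roles and other lists were chosen with earlier results of these data known. Array values are printed for the lowest and highest gene of each role after *miR-486-3p*, the 5 lowest and 3 highest after each strand and the 5 with the largest gap between the strands. Of each other list, at most the 3 lowest and 2 highest after each strand are named, and a few genes of the lists are not reported here. The stretches of promoter were chosen after the matches were seen. Alternatives were other scalings, normexp (offset 50, on the median signals, as no mean signal was used), other filters, the log2 table, an intensity trend in limma, other rules for several probes, a size limit of 1 and leaving out each mock array.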

Additional observations from a re-analysis of the deposited data

How the results depend on the processing

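After *miR-486-3p*, all 55 genes lay below mock under every alternative run, and limma called 51 to 55 lower (14.1% to 41.2% of all genes). Between the strands limma called 40 to 51 lower (9.98% to 33.2%). The count of 31 after *miR-486-5p* depended on the processing: 47 with scaling to the median (11.5% of all genes), 52 with normexp (20.3%), 52 with probes well above background on all 4 arrays (16.7%), 53 with an intensity trend (19.8%), 0 without a filter on dim probes (49 at an unadjusted p under 0.05, and 14.9% of all genes) and 0 with the authors' log2 values (52 at an unadjusted p under 0.05, and 20.7%), where limma called no gene at all. The cause was not tested. More than 1 lower after *miR-486-5p* were 26 genes. Scaling to the median gave medians of -1.03 after *miR-486-5p*, -2.97 after *miR-486-3p* and -1.87 between the strands. It moved the median of all genes by -0.40 after *miR-486-3p* and by -0.31 between the strands, and turned the calls over all genes after *miR-486-3p* from 4398 lower and 4396 higher into 6860 and 2658. Normexp gave medians of -0.87, -2.01 and -1.09. The lowest probe of each gene gave -1.001 after *miR-486-5p*. Leaving out either mock array gave medians of -0.99 to -0.96 after *miR-486-5p* and -2.58 to -2.52 after *miR-486-3p*, and turned only *MAD1L1* after *miR-486-5p*, to 0.013 without mock replicate 2. With only the 52 genes above background on all arrays, an alternative chosen after seeing the data, the medians were -0.93 and -2.55. In the bases before the start alone, the CHR letters stood in 40% of the windows.

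With 1 mock array left, limma estimated no spread and gave no p-value, and all arrays lie on 1 slide, so a slide block was not run. No paired analysis was possible because a group of 1 array cannot be matched to mock by more than 1 number.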
